A study of Mus musculus with 2 samples.

Results

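Adipokines are the proteins through which fat signals to other tissues, and the 10 genes described here encode 7 of them and the 3 proteins that bind adiponectin on target cells. They are the rows whose gene symbol is Adipoq, Adipor1, Adipor2, Cdh13, Lep, Retn, Cfd, Nampt, Rarres2 or Rbp4, taken by name without a threshold on any value, and all 10 are among the 23609 genes of the deposited table. Pericardial adipose tissue (PAT), the fat around the heart, was taken 24 h after the left anterior descending (LAD) artery had been tied off for good, which causes a myocardial infarction. P2Y4 KO mice, which lack the P2Y4 nucleotide receptor, were compared with wild type (WT) mice. Both groups carry the strain label C57BL/6J and both had the ligation, so that no uninjured PAT enters the comparison. RNA of 3 mice was pooled into 1 library for each genotype, and no value below has a replicate check or a test across mice. The mice were 11 to 13 weeks old and of both sexes by the methods of the study, although the low reads of the female transcript Xist given below go against females in these pools. The labels name no tissue-specific driver for the KO.

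Adiponectin (Adipoq) is secreted by adipocytes as trimers and larger multimers. It acts through the receptors AdipoR1 and AdipoR2, which are coupled to AMPK and to PPARalpha, and is held on the surface of vascular and muscle cells by T-cadherin (Cdh13). Leptin (Lep) reports the size of the fat stores to the brain, adipsin (Cfd) is complement factor D, the protease that starts the alternative complement pathway, and resistin (Retn) is in mice a product of adipocytes. Nampt makes NAD from nicotinamide inside cells and is also released, chemerin (Rarres2) attracts leukocytes, and Rbp4 carries retinol in plasma.

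Levels are given as CPM, the deposited value divided by 20, which puts both libraries on the same total. The reads behind them were recovered from the steps between the deposited values and correspond to a depth of 14885824 in P2Y4 KO and 15508820 in WT PAT. Levels have exact Poisson and ratios exact Clopper-Pearson intervals at 95%. These hold the error of counting reads and nothing of the spread between mice or preparations. With the thresholds of the study, a gene is called higher here when its P2Y4 KO level was 2 times the WT level or more and lower when it was 0.5 times that level or less, provided that its CPM exceeded 0.5 in at least 1 library. The targeted gene, P2ry4, was not analysed here, so that the genotype labels were not checked through it.

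In P2Y4 KO PAT leptin, adiponectin and T-cadherin were higher than in WT PAT, 5 further genes had ratios between 1.5 and 2, and Adipor1 and Rarres2 lay close to 1. Of the 10 genes, 3 were higher and 0 were lower, beside 8.75% higher and 4.4% lower among the 18474 genes that passed the CPM filter. A ratio between 1.5 and 2 was found for 7.70% of the genes past this filter. In bulk tissue, more cells of a type and more RNA of a gene in each cell cannot be told apart. All 10 passed the filter, Lep only through the P2Y4 KO library. The median log2 ratio of the 10 was 0.78, against 0.00 over all genes past the filter. For 8 of the 10 the whole interval lay above 1, which was so for 25.2% of all genes, for Rarres2 it lay below 1 and for Adipor1 it held 1. The summed CPM of the 10 genes was 3308 in P2Y4 KO and 2069 in WT PAT, and Cfd alone gave 49.2% of that sum in P2Y4 KO and 46.5% in WT PAT.

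**Figure D1:**
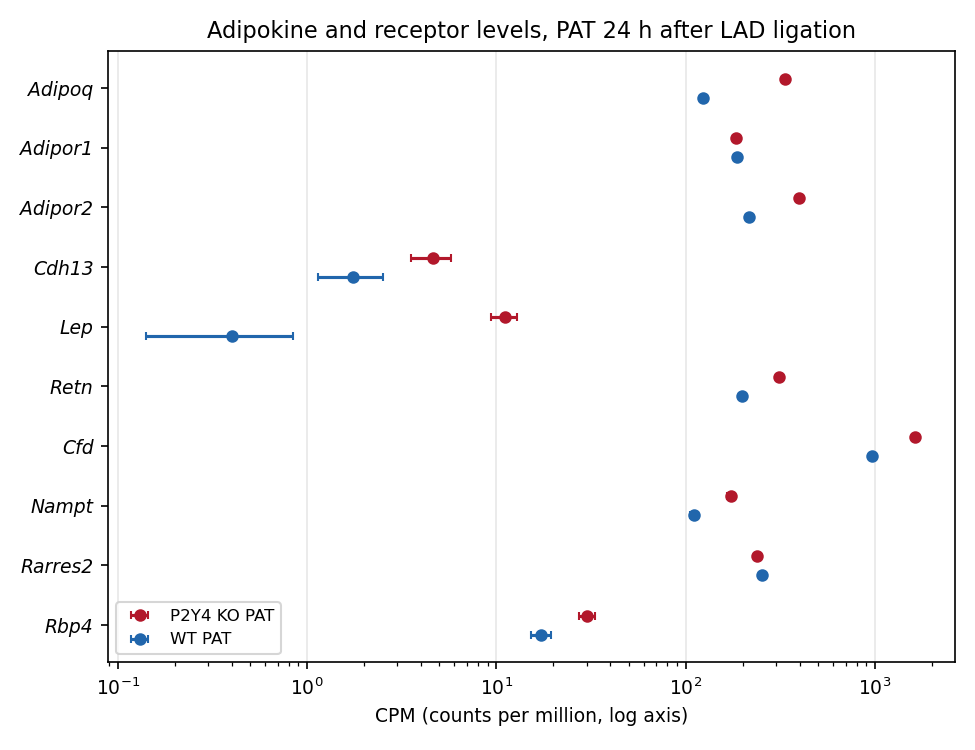
Level of each of the 10 genes (CPM, log axis) in the P2Y4 KO library (red, upper point) and the WT library (blue, lower point), with 95% Poisson intervals of the reads where these are wider than the point. Lep is far apart in the 2 libraries at 11.1 and 0.40 CPM, Adipor1 and Rarres2 nearly coincide, and Cfd is the most abundant in both.

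Adipoq, on chromosome 16 from 23146536 to 23158028 (plus strand; GRCm38, GENCODE M21, as for all positions here), had 4961 reads or 333 CPM (324 to 343) in P2Y4 KO PAT, against 1921 reads or 124 CPM (118 to 130) in WT PAT. The ratio was 2.69 (2.55 to 2.84), and 4.74% of the genes past the filter had a higher one. Adipoq is among the genes the study lists for its difference between these libraries, so its direction is no independent evidence. Lep, on chromosome 6 from 29060220 to 29073877 (plus strand), had 164 reads or 11.1 CPM (9.40 to 12.8) in P2Y4 KO PAT, against 6 reads or 0.40 CPM (0.142 to 0.842) in WT PAT. Leptin mRNA was thus close to the limit of detection in WT and clearly present in P2Y4 KO PAT. The ratio was 27.6 (12.8 to 78.7), exceeded by 0.146% of the genes, and fell to 12.8 when 0.5 CPM was added to both libraries. Per read of Adipoq there were 0.0332 reads of Lep (0.0281 to 0.0386) in P2Y4 KO and 0.00323 (0.00114 to 0.00681) in WT PAT, a 10.3-fold difference (4.54 to 23.2, Wald interval on the log scale).

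The other secreted proteins of adipocytes differed less. Cfd, on chromosome 10 from 79890853 to 79892655 (plus strand), had 24232 reads or 1628 CPM (1607 to 1648) in P2Y4 KO PAT, against 14933 reads or 963 CPM (947 to 978) in WT PAT. Its ratio of 1.69 (1.66 to 1.73) is the most precise of the 10. Retn, on chromosome 8 from 3655770 to 3660110 (plus strand), had 4623 reads or 311 CPM (302 to 320) in P2Y4 KO PAT, against 3055 reads or 197 CPM (190 to 204) in WT PAT, a ratio of 1.58 (1.51 to 1.65). Both genes were therefore higher in the P2Y4 KO library by less than the factor of 2, and their intervals do not reach that of Adipoq. For each read of Adipoq there were 4.88 of Cfd and 0.932 of Retn in P2Y4 KO PAT, against 7.77 of Cfd and 1.59 of Retn in WT PAT.

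Rbp4, on chromosome 19 from 38116629 to 38125281 (minus strand), had 448 reads or 30.1 CPM (27.4 to 33.0) in P2Y4 KO PAT, against 268 reads or 17.3 CPM (15.3 to 19.5) in WT PAT. Its ratio of 1.74 had an interval from 1.49 to 2.03, which holds the threshold. Nampt, on chromosome 12 from 32819545 to 32853349 (plus strand), had 2570 reads or 173 CPM (166 to 179) in P2Y4 KO PAT, against 1717 reads or 111 CPM (106 to 116) in WT PAT, a ratio of 1.56 (1.47 to 1.66). Chemerin stood apart from these, since Rarres2, on chromosome 6 from 48569696 to 48572789 (minus strand), had 3559 reads or 239 CPM (231 to 247) in P2Y4 KO PAT and 3917 reads or 253 CPM (245 to 261) in WT PAT. The ratio was 0.947 (0.904 to 0.991), and after rescaling so that ribosomal protein genes have a median ratio of 1, a shift of 0.20 in log2, it turned to 1.09. The longest stretch that an exon of Rarres2 shares with an exon of Lrrc61, on the other strand, is 782 bases. Lrrc61 had 1990 reads in P2Y4 KO and 2222 in WT PAT. Whether the counting used strand is not given in the sources used here.

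**Figure D2:**
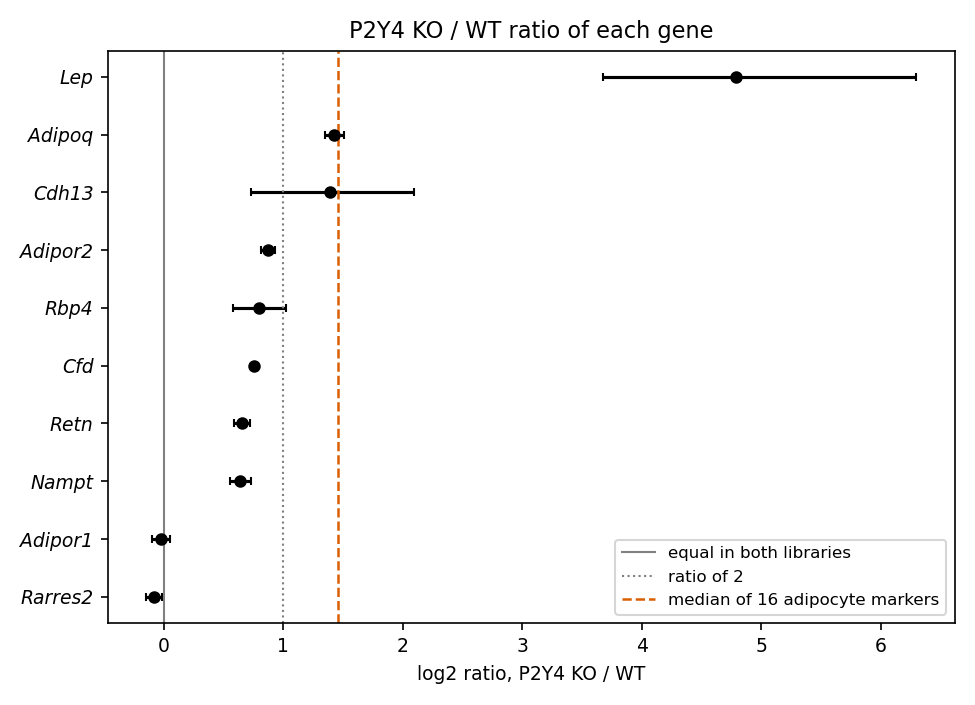
P2Y4 KO/WT ratio of each gene (log2 scale) with its 95% Clopper-Pearson interval, ordered by size, beside lines at equality, at a ratio of 2 and at the median of 16 adipocyte markers (log2 1.46). Lep lies to the right of the marker median, Adipoq and Cdh13 lie close to it at 1.43 and 1.39, and the other 7 genes lie to the left of it.

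The 2 adiponectin receptors differed from each other. Adipor2, on chromosome 6 from 119353150 to 119417704 (minus strand), had 5883 reads or 395 CPM (385 to 405) in P2Y4 KO PAT, against 3350 reads or 216 CPM (209 to 223) in WT PAT. Its ratio was 1.83 (1.75 to 1.91), under the threshold, and 2.10 on the ribosomal scale, past it. Adipor1, on chromosome 1 from 134415378 to 134433351 (plus strand), had 2734 reads or 184 CPM (177 to 191) in P2Y4 KO PAT and 2897 reads or 187 CPM (180 to 194) in WT PAT. Its ratio of 0.983 (0.933 to 1.04) holds equality, so no difference could be detected with these reads, and it became 1.13 on the ribosomal scale. For each read of Adipor1 there were 2.15 reads of Adipor2 (2.06 to 2.25) in P2Y4 KO PAT and 1.16 (1.10 to 1.22) in WT PAT. This quotient does not depend on the scaling and was 1.86 times as large in P2Y4 KO as in WT PAT (1.74 to 1.99, Wald interval).

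T-cadherin lacks an intracellular domain and binds the multimers of adiponectin. Cdh13, on chromosome 8 from 118283733 to 119324921 (plus strand), was scarce, with 68 reads or 4.60 CPM (3.55 to 5.79) in P2Y4 KO PAT, against 27 reads or 1.75 CPM (1.15 to 2.53) in WT PAT. The ratio of 2.63 (1.66 to 4.26) passed the threshold while its interval did not. Cells known to carry T-cadherin are endothelial cells, smooth muscle cells, pericytes and cardiomyocytes, whose markers were mixed for the vessel cells and higher for the cardiomyocytes. Of 10 endothelial markers, 5 were higher and 1 lower (Kdr, 0.491), Esam stood at 0.566 and the other 3 lay between 1.33 and 1.72, their summed CPM being 220 in P2Y4 KO and 171 in WT PAT. Of 7 smooth muscle and pericyte markers past the filter, 2 were higher (Cspg4 and Rgs5, with ratios of 3.18 and 2.40) and 0 lower, the other 5 staying within the factor of 2, with summed CPM over the list of 237 in P2Y4 KO and 166 in WT PAT. All 10 cardiomyocyte markers were higher, with summed CPM of 423 in P2Y4 KO and 9.20 in WT PAT, and so were the 7 skeletal muscle markers past the filter, the list summing to 31.4 CPM in P2Y4 KO and 4.35 CPM in WT PAT. No marker of these lists was at 0 in the P2Y4 KO library, and the table holds no gene at 0 in WT. The part of these cells in the Cdh13 value was not tested.

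Levels of different genes can be set side by side once divided by the length of their exons. Per kilobase, Cfd led in both libraries, with 1766 CPM in P2Y4 KO and 1044 CPM in WT PAT. In P2Y4 KO PAT it was followed by Adipoq (241), Retn (197), Rarres2 (90.0), Adipor2 (66.1), Adipor1 (36.6), Nampt (34.2), Rbp4 (22.4), Lep (3.29) and Cdh13 (0.410), all in CPM per kilobase. In WT PAT the order after Cfd was Retn (125), Rarres2 (95.1), Adipoq (89.7), Adipor1 (37.2), Adipor2 (36.1), Nampt (21.9), Rbp4 (12.9), Cdh13 (0.156) and Lep (0.119). Adiponectin thus had rank 2 in P2Y4 KO and rank 4 in WT PAT. Neighbours whose intervals overlapped were Adipor1 and Nampt in P2Y4 KO PAT, and in WT PAT Rarres2 and Adipoq, Adipor1 and Adipor2, and Cdh13 and Lep. The exon lengths come from GENCODE M21, whose gene models may differ from those used for counting.

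**Figure D3:**
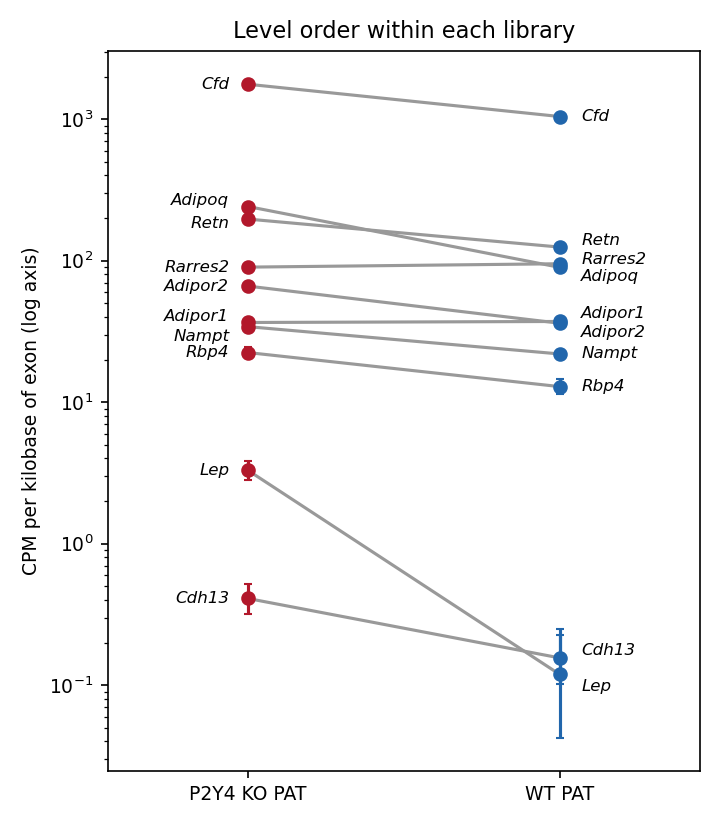
Exon-length-scaled level (CPM per kilobase, log axis) of each gene in the P2Y4 KO library (left, red) and the WT library (right, blue), joined by lines, with 95% Poisson intervals. The lines of Adipoq, Adipor2 and Lep are the ones that cross others, Adipoq standing at 241 and 89.7 and Lep at 3.29 and 0.119.

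The genes were then set beside markers of adipocytes, although T-cadherin is known from the other cells named above. Of 16 adipocyte markers, 13 were higher and 0 lower, with a median ratio of 2.75, Adrb3 (7.37, the beta-3 adrenergic receptor) and Slc2a4 (5.61, the insulin-regulated glucose transporter) leading. Like Adipoq, the markers Adrb3, Slc2a4 and Adig are among the genes the study lists for their difference, so their directions are no independent evidence. Fabp4 (1.48), Cd36 (1.60) and Lpl (1.40), which bind, take up or release fatty acids, stayed within the factor of 2. The summed CPM of the 16 was 6201 in P2Y4 KO and 3087 in WT PAT, and none of the 16 was at 0. Divided by the median marker ratio, Adipoq stood at 0.980 (0.929 to 1.03) and Cdh13 at 0.957 (0.604 to 1.55). Intervals on this scale take the median as fixed and leave out the spread of the markers, whose ratios ran from 1.40 to 7.37. Lep remained higher at 10.1 (4.66 to 28.7), above every one of the 16 markers. Cfd (0.616), Retn (0.574), Nampt (0.568), Rbp4 (0.634) and Adipor2 (0.666) were below the marker median within the factor of 2, and Adipor1 (0.358) and Rarres2 (0.345) passed the threshold for lower genes. Every log2 ratio falls by 1.46 on this scale, where 79.6% of all genes past the filter were lower and 1.3% higher. The ratio of Adipoq exceeded that of 7 markers, those of Retn and Nampt exceeded 2, and those of Cfd, Rbp4 and Adipor2 exceeded 3.

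Markers of other cells moved as well, and their part in the values above was not tested. The 8 markers of brown and beige adipocytes were all higher, with summed CPM of 429 in P2Y4 KO and 17.6 in WT PAT, led by Ucp1 (168) and Cidea (69.8). Of these, Ucp1, Dio2 and Prdm16 are also among the genes the study lists for their difference. Of 9 mesothelial markers 8 were lower and 0 higher, with summed CPM of 660 in P2Y4 KO and 2246 in WT PAT. The 10 macrophage markers lay between ratios of 0.890 and 1.54, with summed CPM of 6559 in P2Y4 KO and 5356 in WT PAT. Of 9 neutrophil markers, 3 were lower, namely Ngp, Ly6g and Camp, and the list summed to 1472 CPM in P2Y4 KO and 1674 CPM in WT PAT. Camp had 3 reads in P2Y4 KO and 9 in WT PAT (0.417, 0.0605 to 1.39). Its interval holds equality, and it passed the filter only through the WT library. Of 9 fibroblast and preadipocyte markers, Cd34 and Dlk1 were lower, and the list summed to 3006 CPM in P2Y4 KO and 3456 CPM in WT PAT. Of 6 thymocyte markers, 2 passed the filter and neither was higher or lower, the list summing to 3.70 CPM in P2Y4 KO and 2.05 CPM in WT PAT. Leptin differs between the sexes in mice, and the 4 Y-linked genes measured had ratios between 0.760 and 1.16. Xist, which female cells transcribe from the inactive X, had only 2 reads in P2Y4 KO and 7 reads in WT PAT, against 232 reads in P2Y4 KO and 267 in WT PAT for Uty, the lowest of the 4.

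The promoters of these genes differed in their content of CpG dinucleotides. RefSeq promoter sequences (GRCm38.p6, 250 bases before to 50 after the start) were matched for 8 of the 10 genes. Those of Adipoq and Lep, the secreted factors that were higher, and of Adipor1 and Adipor2, the receptors that differed from each other, are shown 5′ to 3′ on the strand of the gene, with each CpG in capitals. CpG-rich starts are typical of genes used by many cell types and CpG-poor starts of tissue-restricted genes. The windows are chr16:23146286-23146585 for Adipoq, chr6:29059971-29060270 for Lep, chr1:134415128-134415427 for Adipor1 (the first of its 2 RefSeq starts) and chr6:119388685-119388984 for Adipor2. The Adipor2 window lies inside the GENCODE gene model, whose 5′ end on the minus strand is at 119417704.
Adipoq: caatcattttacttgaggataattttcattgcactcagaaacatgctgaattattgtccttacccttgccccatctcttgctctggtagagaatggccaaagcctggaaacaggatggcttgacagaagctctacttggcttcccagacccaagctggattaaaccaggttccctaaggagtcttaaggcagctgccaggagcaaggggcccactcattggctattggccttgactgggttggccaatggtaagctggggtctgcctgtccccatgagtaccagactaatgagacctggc
Lep: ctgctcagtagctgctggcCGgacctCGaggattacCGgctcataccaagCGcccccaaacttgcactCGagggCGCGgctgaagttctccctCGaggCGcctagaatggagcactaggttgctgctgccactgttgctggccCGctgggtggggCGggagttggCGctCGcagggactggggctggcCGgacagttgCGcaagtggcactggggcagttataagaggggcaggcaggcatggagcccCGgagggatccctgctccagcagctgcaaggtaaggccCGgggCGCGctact
Adipor1: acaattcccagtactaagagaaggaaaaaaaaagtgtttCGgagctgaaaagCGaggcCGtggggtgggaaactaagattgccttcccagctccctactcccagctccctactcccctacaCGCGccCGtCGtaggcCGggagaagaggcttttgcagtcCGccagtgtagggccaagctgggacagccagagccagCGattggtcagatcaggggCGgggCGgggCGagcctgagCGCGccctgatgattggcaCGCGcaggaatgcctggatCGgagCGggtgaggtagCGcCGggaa
Adipor2: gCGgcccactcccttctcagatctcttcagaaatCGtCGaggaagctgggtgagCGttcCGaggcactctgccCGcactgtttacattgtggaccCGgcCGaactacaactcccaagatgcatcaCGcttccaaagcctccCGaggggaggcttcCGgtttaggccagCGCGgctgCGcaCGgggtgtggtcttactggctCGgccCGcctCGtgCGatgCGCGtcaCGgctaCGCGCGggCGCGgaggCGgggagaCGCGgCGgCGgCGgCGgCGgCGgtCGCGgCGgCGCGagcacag

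The Adipoq window held 0 CpG, as do 5.43% of the 32851 promoter windows, and those of Cfd and Retn held 2 each, while the median over all windows is 7. Adipor1 had 21 CpG at the start shown and 40 at its other start, close to the 41 of the Adipor2 window shown. Among the secreted factors Nampt had 36, and the 2 starts of Rbp4 had 40 and 5. Lep, with 19 CpG, lay above the median although its mRNA, per kilobase, was the scarcest of the secreted factors in both libraries. The motif TTGCNNAA, the core bound by C/EBP factors (both strands searched), was found in the Lep window as TTGCGCAA from position -55 to -48 and in 1 of 2 Rbp4 windows as TTATGCAA from -128 to -121, and 10.8% of all windows hold it. The GC box GGGCGG was found for Adipor1, Lep, Nampt and Rbp4 (35.7% of all windows), and TATAAA for Rbp4 (13.6%). The PPAR/RXR direct repeat, the SREBP motif TCACNCCAC and the E-box CACGTG were in 0 of the 10 windows of these genes and in 0.381%, 1.24% and 7.15% of all windows. A match is a string of letters and not evidence of binding.

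Genes around adiponectin were measured next, from lists chosen with earlier results of these data known. Of 9 C1q/TNF-related paralogs of adiponectin past the filter, C1qtnf9 was higher and C1qtnf2 and C1qtnf4 were lower (median log2 ratio 0.80). C1qtnf9 had 26 reads in P2Y4 KO and 12 in WT PAT (ratio 2.19, 1.10 to 4.91). C1qtnf2 had 20 reads in P2Y4 KO and 42 in WT PAT (0.491, 0.276 to 0.864), and C1qtnf4 had 10 in P2Y4 KO and 28 in WT PAT (0.378, 0.161 to 0.789). No interval of these 3 clears the threshold, and the tally was 4 higher and 1 lower on the ribosomal scale and 0 higher and 0 lower with 0.5 CPM added to both libraries. Of 8 genes that fold or modify adiponectin in the endoplasmic reticulum, only Gstk1 was higher (median log2 ratio 0.03). Gstk1, also known as DsbA-L and reported to promote adiponectin multimers, had 26.5 CPM in P2Y4 KO and 9.85 CPM in WT PAT, a ratio of 2.69 (2.23 to 3.27). The other 7, among them the retention chaperone Erp44 (1.04) and the oxidase Ero1l (1.0), lay between 0.945 and 1.08.

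On the receptor side, 1 of 7 measured paralogs of AdipoR1 and AdipoR2 in the PAQR family was higher and 0 were lower (median log2 ratio 0.00). This was Paqr9, with 198 reads in P2Y4 KO and 36 in WT PAT (ratio 5.68, 4.0 to 8.42). Of 13 genes of receptor signalling, Ppargc1a and Ppara were higher and 0 were lower (median log2 ratio -0.10). Ppargc1a, a coactivator of mitochondrial genes, had 37 reads in P2Y4 KO and 7 in WT PAT (5.0, 2.42 to 14.6), and passed the filter only through the P2Y4 KO library, which leaves 1 higher gene when CPM above 0.5 is asked of both. Ppara, the nuclear receptor downstream of AdipoR2, had 57 reads in P2Y4 KO and 21 in WT PAT (ratio 2.75, 1.69 to 4.91). The part of cardiomyocytes, whose 10 markers were all higher, in the Ppargc1a and Ppara values was not tested. The adaptor Appl1 (0.763) and the AMPK catalytic subunit Prkaa1 (0.777) had ratios below 1, as had Prkab1 (0.902), Prkab2 (0.795) and Prkag1 (0.884). Their counterparts Appl2 (1.30), Prkaa2 (1.57) and Prkag2 (1.39) had ratios above 1. Appl1, Appl2 and the AMPK subunits all stayed within the factor of 2. Of 11 regulators of adipocyte genes, Pparg, the master regulator of adipocyte differentiation, was higher (2.84, 2.49 to 3.25) and 0 were lower, with 2 higher on the ribosomal scale (median log2 ratio 0.41). Pparg too is among the genes the study lists for their difference between these libraries.

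**Figure D4:**
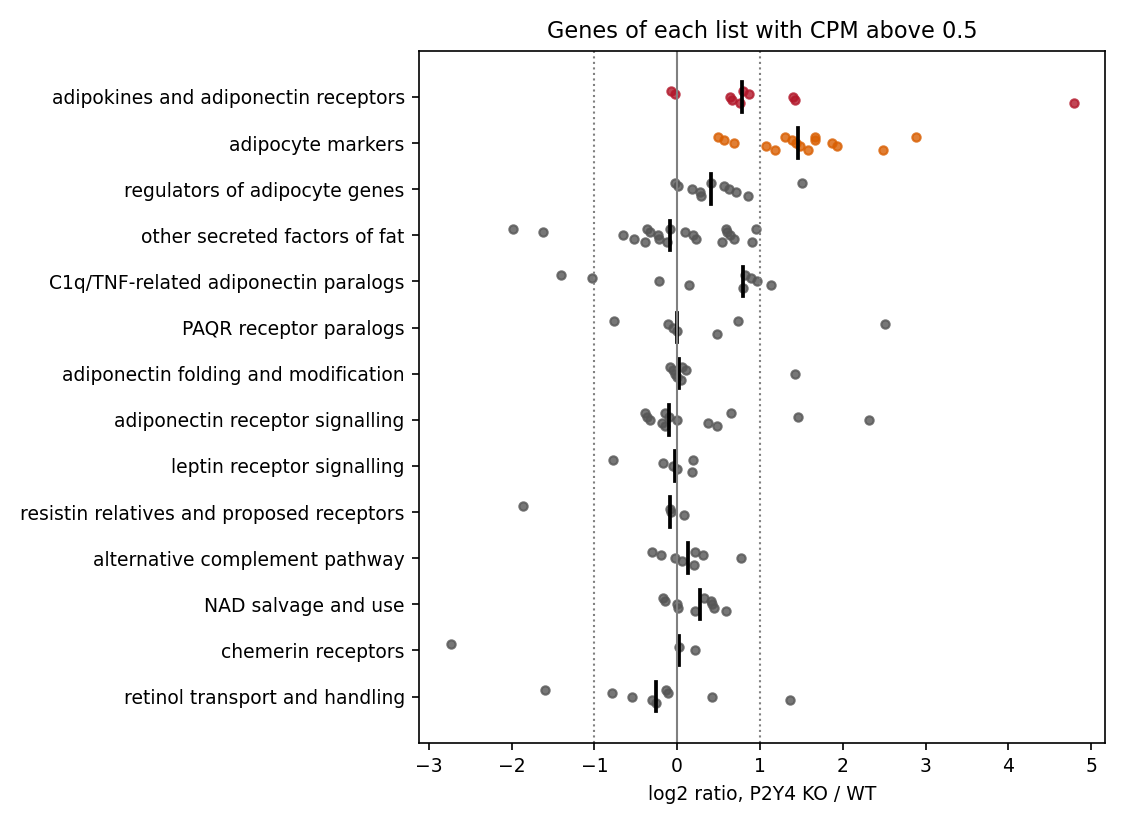
P2Y4 KO/WT ratio (log2 scale) of each gene with CPM above 0.5, by list, with a bar at the median and dotted lines at ratios of 2 and 0.5. The adipocyte markers (median 1.46), the C1q/TNF-related paralogs (0.80) and the 10 adipokine and receptor genes (0.78) have the highest medians of the lists drawn, and the receptor and signalling lists lie around 0.

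Of 6 genes of leptin receptor signalling 0 were higher or lower (median log2 ratio -0.02), and the receptor gene Lepr had 34 reads in P2Y4 KO and 61 in WT PAT (ratio 0.582, 0.370 to 0.898). Lep and Lepr therefore differed in opposite directions, Lepr within the factor of 2. Of the resistin relatives, Retnlg was lower, with 55.2 CPM in P2Y4 KO and 201 CPM in WT PAT (0.275, 0.254 to 0.296). Retnlg is known in mice from neutrophils, whose 9 markers had ratios from 0.128 to 0.953 and sums in a ratio of 0.879, while Retnla (0.953) and the proposed resistin receptors Cap1 (1.06) and Tlr4 (0.938) lay near 1. Retn and Retnlg thus differed in opposite directions between the libraries.

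Adipsin acts on complement factor B bound to C3b. C3 had 2775 CPM in P2Y4 KO and 2828 CPM in WT PAT (ratio 0.981), and Cfb, whose product adipsin cleaves, had 848 CPM in P2Y4 KO and 813 CPM in WT PAT (1.04). Of 8 genes of the alternative complement pathway past the filter 0 were higher or lower (median log2 ratio 0.14), and of 10 genes of NAD salvage and use around Nampt likewise 0 (median log2 ratio 0.27). Of the chemerin receptors, the signalling receptor Cmklr1 had 121 CPM in P2Y4 KO and 119 CPM in WT PAT (1.01, 0.947 to 1.08) and Ccrl2, which binds chemerin without signalling, had 34.5 CPM in P2Y4 KO and 29.8 CPM in WT PAT (1.16). The third, Gpr1, had 2 reads in P2Y4 KO and 15 in WT PAT (0.150, 0.0154 to 0.597), an interval that holds the threshold, and it drops out with CPM above 1 in at least 1 library.

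Among 9 genes of retinol transport and handling past the filter, 1 was higher and 1 lower (median log2 ratio -0.26). Aldh1a1, which oxidises retinaldehyde to retinoic acid, had 109 CPM in P2Y4 KO and 331 CPM in WT PAT (ratio 0.330, 0.312 to 0.349). The 2 membrane receptors for Rbp4 went opposite ways at low counts. Stra6 had 40 reads in P2Y4 KO and 72 in WT PAT (0.581, 0.383 to 0.864), and Stra6l had 30 in P2Y4 KO and 12 in WT PAT (2.56, 1.29 to 5.59), Stra6l being no longer higher with 0.5 CPM added. Of 21 other secreted factors of fat past the filter, 0 were higher and 2 lower (median log2 ratio -0.09). These were Sfrp5, an inhibitor of Wnt5a (0.253, 0.165 to 0.376), and Agt, the precursor of the angiotensins (0.324, 0.239 to 0.434).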

How the data were processed

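PAT RNA of 3 mice per genotype was pooled into 1 stranded mRNA library each. According to the methods and the submitters' notes, reads were trimmed with Trimmomatic, mapped to GRCm38.p4 (mm10) with STAR and counted with HTSeq on Ensembl release 87, whose versions and strand setting the sources used here do not give. The deposited signal per gene holds reads that the authors scaled to 20000000 per library and rounded up. The authors' deposited ratio and their list of regulated genes were not used.

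The value of 1 read, 1.34 in P2Y4 KO and 1.29 in WT, was found as the step that most values fit, and 99.8% of the nonzero values in P2Y4 KO and 99.9% in WT equal a whole number of reads times the step, rounded up, with no tolerance. The recovery was tested on simulated data. The table lists genes with at least 1 read in WT, so that genes read in P2Y4 KO alone were not analysed here. No count model was fitted, since each group has 1 library. Ratios use the deposited values with no pseudocount. Python 3.11.15, scipy 1.17.1 and pandas 2.3.3 were used.

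The 10 genes, the 12 pathway lists and the 12 marker lists were chosen with earlier results of these data known, although the rule for the 10 genes is by name alone. Named were all 10 genes, up to 3 genes past the threshold of each pathway list by the interval bound (all where 5 or fewer passed), all chemerin and Rbp4 receptors, Lepr and the resistin relatives, and 2 genes of a marker list. The promoter windows shown, the CpG counts and the pairs of genes set as quotients were picked after the values were seen. Fabp4, Cd36, Lpl, Kdr, Esam, Camp, Erp44, Ero1l, Appl1, Appl2, the AMPK subunits, C3, Cfb and the sex-linked genes were named after their values were seen. Alternatives covered filters, scalings, a pseudocount of 0.5 CPM, recovered reads and the interval bound.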

Additional observations from a re-analysis of the deposited data

How the results depend on the processing

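The count of 3 higher and 0 lower genes among the 10 stayed within 1.5 times under every filter, pseudocount, read-based and interval setting tried and under 5 of the 6 scalings. It was 2 with CPM above 0.5 in both libraries, which removes Lep, 2 with the whole interval past the threshold, which removes Cdh13, and 4 with the median ribosomal protein gene ratio set to 1, which adds Adipor2. With the median adipocyte marker ratio set to 1, which lowers every log2 ratio by 1.46, 1 gene was higher (Lep) and 2 were lower (Adipor1 and Rarres2), and the log2 ratios of Adipoq and Cdh13 turned to -0.030 and -0.063. On the ribosomal scale 80.3% of all calls were higher ones, against 66.6% on the deposited scale and 1.61% on the adipocyte scale. Of 109 log2 ratios of the 10 genes under alternatives, 92 stayed inside the counting interval. The filter settings cannot change a ratio, and the median-of-ratios size factors gave a factor of 1, so these values stayed inside by construction. Those that left it did so on the ribosomal or adipocyte scale. Of 240 counts in the pathway lists 228 stayed within 1.5 times, those under the median-of-ratios factor of 1 by construction. These counts were not made with the interval bound or on the adipocyte scale, where 79.6% of all genes past the filter were lower. Without the CPM filter C1qtnf3 and Hc, at under 10 reads, were added to the higher genes. No paired analysis was possible because each genotype has 1 library. Depth limits Lep, with 6 reads in WT PAT, and Cdh13, with 27.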

Other observations

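Among the other secreted factors of fat, the genes named here were picked after their values were seen. Vegfa, the main angiogenic growth factor, stood at 112 CPM in P2Y4 KO and 58.0 CPM in WT PAT (ratio 1.94, 1.79 to 2.10), and Adm, which encodes the vasodilator adrenomedullin, at 14.8 CPM in P2Y4 KO and 7.90 CPM in WT PAT (1.87). Nrg4, a factor enriched in brown fat, had a ratio of 1.52, while Metrnl (0.699) and Dpp4 (0.634) were below 1. None of these passed the threshold on the deposited scale, and on the ribosomal scale 2 genes of this list did, Vegfa and Adm. Among the PAQR family, Mmd, known from macrophage differentiation, had 183 CPM in P2Y4 KO and 110 CPM in WT PAT (ratio 1.67, 1.57 to 1.77).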
